A study of Mus musculus with 6 samples.

Results

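Long-chain fatty acids reach the hepatocyte bound to albumin or released from lipoproteins, and membrane and cytosolic proteins take them in, activate them and carry them. The genes described here are 10 of the 22180 genes read on the arrays, chosen by name. They are the cytosolic fatty acid binding proteins Fabp1, Fabp2, Fabp4, Fabp5 and Fabp7, the scavenger receptor Cd36, and the fatty acid transport proteins Slc27a1, Slc27a2, Slc27a4 and Slc27a5. Fatty acid binding proteins hold a fatty acid inside a small barrel and shuttle it between membranes and enzymes. Slc27 proteins are acyl-CoA synthetases that trap an incoming fatty acid as its coenzyme A ester. In liver, Fabp1, Slc27a2 and Slc27a5 are known as hepatocyte proteins, Cd36 is known to be induced in fatty liver, and Fabp4 is known from adipocytes, macrophages and capillary endothelium.

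The study hybridised liver RNA from 6 C57BL/6J males to Affymetrix whole-transcript arrays, with 1 array for each animal. The 3 Con mice had the genotype Slug f/f, that is, floxed alleles of Slug (symbol Snai2, a zinc finger repressor of the Snail family). The 3 HKO mice were SlugHKO littermates, in which albumin-CreERT2, a tamoxifen-activated Cre under the hepatocyte albumin promoter, was combined with the floxed alleles. From 8 weeks of age all mice ate a high fat diet (60% fat by calories) for 11 weeks, so both groups are diet-fed and there is no chow group. The sources used here do not give whether Con mice carried Cre or how Cre was activated. Values are log2 values made by RMA, a method that subtracts background, gives every array the same distribution and merges a probe set's probes into 1 value. A log2 difference of 1 is a doubling on the array scale, and levels of different genes are not compared, since each probe set has its own sensitivity.

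The arrays were alike in their distributions, with the median over genes between 3.947 and 3.954, and correlations over genes were 0.989 to 0.992 within groups and 0.986 to 0.988 across groups. Snai2, the targeted gene, checked the labels: it read 7.74, 7.69 and 7.39 in Con and 4.62, 5.23 and 5.69 in HKO, and the groups did not overlap. The liver label was checked on albumin (Alb), the defining hepatocyte transcript, which read 12.40 to 12.48 in all 6 mice. In pieces of liver, fewer cells of a type and less RNA per cell cannot be told apart.

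Fabp4 was the single gene of the 10 that passed the test, and it was lower in HKO livers. It fell by 1.22 on the log2 scale (2.33-fold lower, 95% interval 1.78 to 3.04). Fabp2 and Cd36 also read lower in every HKO mouse, 1.47-fold and 1.58-fold, and Slc27a1 read 1.55-fold higher, without passing. Fabp1, which carries fatty acids in the hepatocyte cytosol, read almost alike in both groups. The test was limma's moderated fit of HKO against Con over all 22180 genes, two-sided, with Benjamini-Hochberg adjustment and a threshold of adjusted p 0.05. Over all genes 45 passed, or 0.203%, with 0.113% lower and 0.0902% higher in HKO.

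Of the 10 genes, 7 had array values that did not overlap between the groups, 4 of them lower in HKO and 3 higher, where 18.2% of all genes did not overlap, 10.1% lower and 8.05% higher. At an unadjusted limma p under 0.05 there were 4 lower and 2 higher genes of the 10, against 11.9% of all genes (6.56% lower, 5.31% higher). The median log2 difference, HKO minus Con, was -0.12 over the 10 genes and -0.01 over all genes. The genes were chosen with earlier results of these data known, so these counts describe them and do not test them. An exact permutation test over 3 against 3 mice cannot go below p = 0.1, the value it gave for each of the 7 non-overlapping genes.

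**Figure D1:**
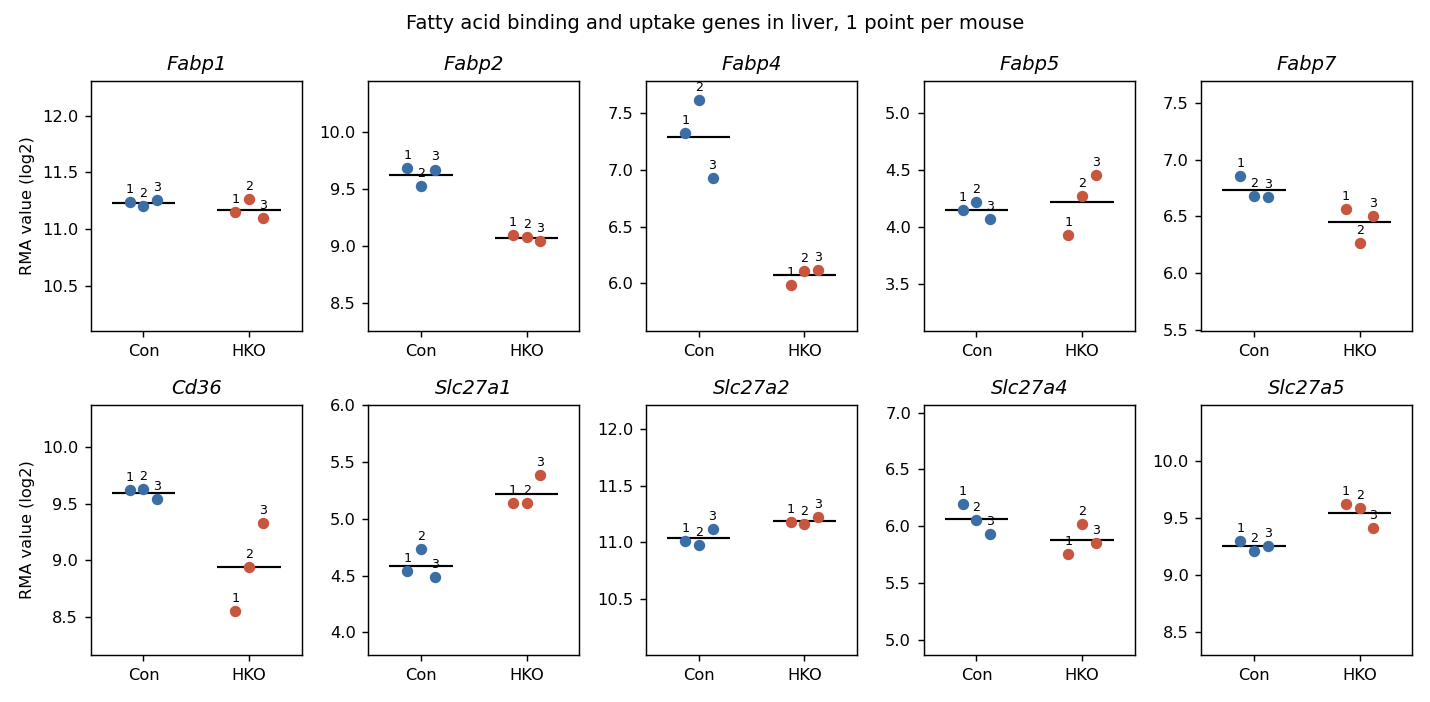
RMA values (log2) of the 10 genes, 1 point per mouse, numbered by mouse within the group, with the group mean as a line; every panel spans the same number of log2 units. Fabp4 and Fabp2 in HKO sit tightly together below all Con mice, Cd36 in HKO is spread from 8.55 to 9.33, and Slc27a1 in HKO lies above all Con mice.

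RefSeq promoter windows of GRCm38.p6, reaching from 250 bases before a gene's start to 50 after it, were matched for 7 of the 10 genes in 9 windows. Fabp4, Fabp5 and Slc27a5 had no entry. The windows were read for the E-box CAGGTG (or its reverse, CACCTG), the letters that Slug is known to bind, and, on both strands, for an exact spelling of the DR1 element bound by PPAR with RXR, which is AGGTCA repeated after a spacer of 1 base. The E-box was present in 2 of the 9 windows, those of Slc27a1 (1 of its 3) and Slc27a2, and in 20.2% of all 32851 windows of the table. None of the 9 windows held the exact DR1 spelling, which is in only 13 of all 32851 windows (0.0396%). A spelling this rare is hardly ever found in 9 windows. Its absence therefore does not show that they lack a PPAR site, and DR1 elements with other letters were not searched. With no DR1 match, no E-box overlapped one. The stretches around both E-boxes are shown as the places where these promoters hold the letters of the deleted factor's site; capitals mark the E-box. Each stretch is 30 bases long and lies on the plus strand. In Slc27a1 the E-box begins 39 bases before the second of its 3 starts (chr8:71569546-71569575), and in Slc27a2 it begins 25 bases before the start (chr2:126552987-126553016).
Slc27a1: ccccgccttcagCACCTGcttgttttcacc
Slc27a2: gcgcgccacaggCACCTGcagccgagccgc
The 250 bases before the start of Fabp2 (chr3:122894822-122895071, plus strand) are shown for contrast, as the gene with the lowest p among those that have a window; they hold neither spelling and so carry no capitals.
Fabp2: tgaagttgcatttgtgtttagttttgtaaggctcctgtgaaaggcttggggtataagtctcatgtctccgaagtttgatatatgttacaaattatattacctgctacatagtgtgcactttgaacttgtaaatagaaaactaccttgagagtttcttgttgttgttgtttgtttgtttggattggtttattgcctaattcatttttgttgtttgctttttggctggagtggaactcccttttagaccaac
A match in letters is a description of the window, and the data here do not measure binding.

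Among the binding proteins, Fabp4 (adipocyte fatty acid binding protein, probe set 17404091) read 7.33, 7.61 and 6.93 in the 3 Con mice and 5.99, 6.11 and 6.12 in the 3 HKO mice. All HKO mice lay below the lowest Con mouse, by 0.81 log2 units, and they differed among themselves by only 0.13, while the Con mice spanned 0.69. Con averaged 7.29 ± 0.35 (SD, n = 3) and HKO 6.07 ± 0.07 (SD, n = 3). The log2 change was -1.22 ± 0.17 (SE; limma adjusted p = 0.0444), which ranks the gene 40 of 22180 by p. With 1 mouse left out, the call held only without Con replicate 3 (limma adjusted p = 0.0157). With any other mouse left out the adjusted p was between 0.124 and 0.173. Such fits have fewer arrays, and the cause of the lost call was not tested. The change itself stayed between -1.40 and -1.06 in those fits. It also missed the threshold with a second quantile normalization (adjusted p = 0.0608), with each probe set tested separately (0.142) and with a block for the replicate number (0.1004).

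Fabp2, the intestinal type of binding protein, which is also made in liver, read 9.69, 9.52 and 9.67 in Con and 9.10, 9.08 and 9.04 in HKO. The HKO mice spanned 0.06 log2 units and lay 0.43 below the lowest Con mouse. The log2 difference was -0.55 ± 0.10 (SE), with a limma adjusted p of 0.0935, above the threshold. Fabp2 did pass with a filter on low values, which tested 11223 genes (adjusted p = 0.0350), and with a variance trend (0.00519).

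Fabp7, the brain type, read 6.85, 6.68 and 6.67 in Con and 6.57, 6.27 and 6.51 in HKO. The groups were 0.10 log2 units apart at their nearest values, less than the range within either group. Its log2 difference was -0.29 ± 0.12 (SE; limma adjusted p = 0.400).

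Fabp1, the liver type and the main cytosolic carrier of hepatocytes, read 11.24, 11.20 and 11.26 in Con and 11.15, 11.27 and 11.10 in HKO. The groups overlapped. The 95% interval of the log2 difference ran from -0.29 to 0.16, so a difference of more than 1.22-fold in either direction lies outside it.

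Fabp5, the epidermal type, known from skin and macrophages, read 4.15, 4.22 and 4.07 in Con and 3.93, 4.27 and 4.45 in HKO. These values are close to the median over genes, and whether they exceed background was not measured. The HKO mice lay on both sides of the Con mice, and the log2 difference was 0.07, with a 95% interval from -0.26 to 0.40. Its sign turned when the 4 probe sets of the gene were averaged (-0.00336) and without HKO replicate 3 (-0.05). The other 3 Fabp5 probe sets stood at 0.02, -0.03 and -0.08. The fatty acid binding proteins are similar in sequence, and Fabp5 has processed copies in the genome, so its probe sets may share signal with these.

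Fabp4 lies on mouse chromosome 3 in a row of related genes, in the order Fabp5, Pmp2, Fabp9, Fabp4 and Fabp12 among protein-coding genes of RefSeq. The neighbours stood at log2 differences of 0.07 (Fabp5), -0.04 (Pmp2, the myelin type), 0.07 (Fabp9, the testis type) and 0.15 (Fabp12). The 95% intervals were -0.28 to 0.20 for Pmp2, -0.16 to 0.29 for Fabp9 and -0.21 to 0.50 for Fabp12, each above the interval of Fabp4, which ran from -1.60 to -0.83. The means of Pmp2, Fabp9 and Fabp12 lay between 2.09 and 2.99, under the median over genes, where changes are compressed, so a change in them could be hidden. The next gene beyond Fabp12, Impa1, an inositol phosphatase with a mean of 7.30 in Con, stood at 0.02.

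Cd36, the membrane receptor that takes up long-chain fatty acids, read 9.62, 9.63 and 9.54 in Con and 8.55, 8.94 and 9.33 in HKO. The Con mice spanned 0.09 log2 units and the HKO mice 0.77, and the highest HKO mouse was 0.22 below the lowest Con mouse. Con averaged 9.60 ± 0.05 (SD, n = 3), against 8.94 ± 0.39 (SD, n = 3) for HKO. The log2 difference was -0.66 ± 0.18 (SE; 95% interval -1.07 to -0.24; limma adjusted p = 0.237). It was -0.46 without HKO replicate 1 and -0.85 without HKO replicate 3, and did not pass in either fit.

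Of the 4 Slc27 genes, 3 read higher in HKO and Slc27a4 read lower, none past the threshold. Slc27a1 (FATP1), known as the insulin-responsive transport protein of muscle and fat, read 4.54, 4.73 and 4.49 in Con and 5.14, 5.14 and 5.38 in HKO. The lowest HKO mouse was 0.41 log2 units above the highest Con mouse, and both groups spanned 0.24. The log2 difference was 0.63 ± 0.12 (SE; limma adjusted p = 0.109). It passed with the filter on low values (adjusted p = 0.0464) and in no other fit. Its level lay near the median over genes in Con, where RMA compresses differences.

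Slc27a5 (FATP5), a hepatocyte protein that also activates bile acids before they are conjugated, read 9.29, 9.20 and 9.25 in Con and 9.62, 9.58 and 9.41 in HKO. The groups were 0.12 apart at their nearest values. The log2 difference was 0.29 ± 0.10 (SE; limma adjusted p = 0.341).

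Slc27a2 (FATP2), the main very long-chain acyl-CoA synthetase of hepatocytes, read 11.01, 10.97 and 11.12 in Con and 11.18, 11.16 and 11.22 in HKO. The groups did not overlap but were only 0.04 apart, less than the range within either. The log2 difference was 0.15, with a 95% interval from -0.07 to 0.37, and 0.04 when both of its probe sets were averaged, the second of them dim with a mean of 4.17. Slc27a4 (FATP4), known from intestine and skin, read 6.20, 6.06 and 5.93 in Con and 5.76, 6.02 and 5.85 in HKO, so the groups overlapped. Its log2 difference was -0.18, with a 95% interval from -0.46 to 0.09.

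**Figure D2:**
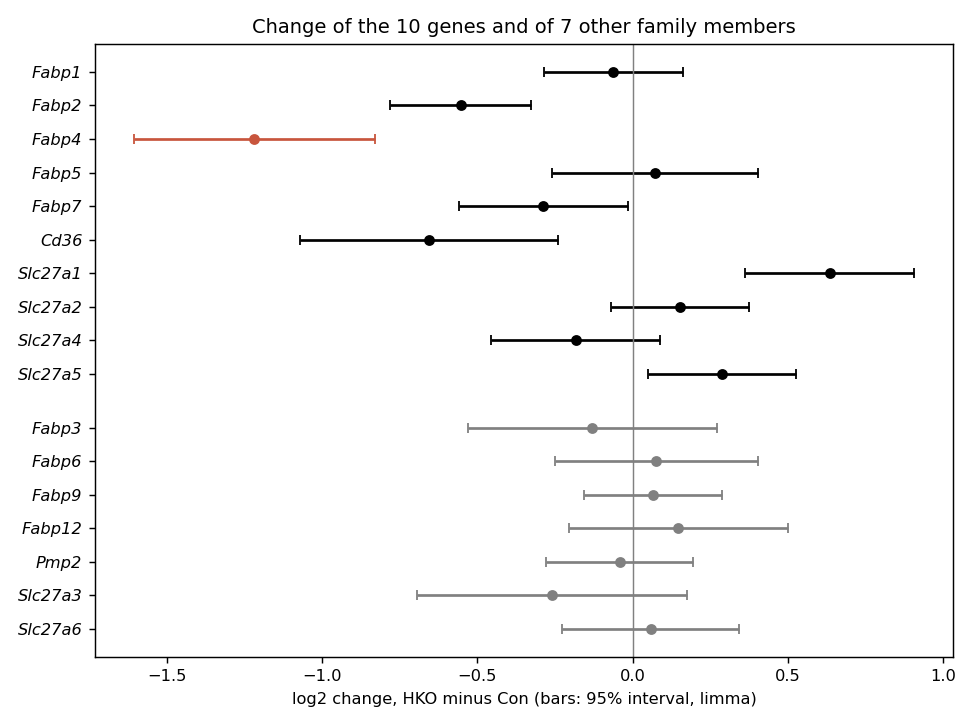
Log2 change, HKO minus Con, of the 10 genes and of 7 other members of both families (grey), with 95% intervals from limma. Fabp4, in red, passed adjusted p 0.05; of the other genes, the intervals of Fabp2, Fabp7, Cd36, Slc27a1 and Slc27a5 leave out 0 before adjustment, and those of all 7 grey genes include it.

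Of the other family members, 0 of 7 passed, against 0.203% of all genes, and 0 had an unadjusted limma p under 0.05, against 11.9%. The values of all 7 overlapped between groups, where 18.2% of all genes did not overlap. With only 7 genes, these counts describe the list and do not set it apart from all genes. Slc27a3 stood at -0.26, Fabp12 at 0.15, Fabp3 (the heart type) at -0.13 and Fabp9 at 0.07 on the log2 scale. Both group means of 6 of the 7 were under the median over genes; Fabp3 was the exception, with 6.88, 6.42 and 6.62 in Con and 6.36, 6.33 and 6.85 in HKO. A second Fabp3 probe set, with a mean of 2.32, stood at -0.23.

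Around the 10 genes, 43 measured genes of activation, delivery and regulation held no gene past adjusted p 0.05 in limma, against 0.203% of all genes, while 15 of them had an unadjusted limma p under 0.05, against 11.9% of all genes. In the list of acyl-CoA synthetases and intracellular carriers, 0 of 13 measured genes passed in either direction, and the median log2 difference was -0.10. Acsl5, a long-chain acyl-CoA synthetase, read 9.26, 9.17 and 9.26 in Con and 8.84, 9.03 and 8.87 in HKO, a difference of -0.32 (limma adjusted p = 0.294). The medium-chain synthetases Acsm5 and Acsm1 stood at 0.31 and 0.29, with all HKO mice above all Con mice in both. Acbd3, an acyl-CoA binding domain protein of the Golgi, stood at -0.26. Acsl1, Acsl3 and Acsm3 were listed but not analysed here.

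Of the measured genes of fatty acid delivery, 0 of 15 passed, while 6 were lower and 1 higher at an unadjusted limma p under 0.05, where 6.56% of all genes were lower and 5.31% higher; the median log2 difference was -0.17, against -0.01 over all genes. Vldlr, the receptor that binds triglyceride-rich lipoproteins, read 5.14, 5.13 and 4.71 in Con and 4.06, 3.76 and 4.51 in HKO, a difference of -0.89 ± 0.20 (SE; limma adjusted p = 0.167). Lpl, lipoprotein lipase, which frees fatty acids from lipoproteins, read 5.83, 5.86 and 5.27 in Con and 4.80, 4.64 and 5.29 in HKO, so its groups overlapped through Con replicate 3 and HKO replicate 3. Its difference was -0.75 ± 0.21 (SE; limma adjusted p = 0.251). Angptl8, a secreted inhibitor of lipoprotein lipase, stood at -0.61, and Cavin1, a coat protein of caveolae, at -0.38, both without passing and without overlap between groups.

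Of the transcriptional regulators of these genes, 0 of 15 passed, while 5 were higher and 0 lower at an unadjusted limma p under 0.05, beside the same 5.31% and 6.56% of all genes; the median log2 difference was 0.11. Nr1i3, the nuclear receptor CAR, read 9.10, 9.13 and 9.12 in Con and 9.61, 9.36 and 9.60 in HKO, a difference of 0.41 ± 0.11 (SE; limma adjusted p = 0.220). Rxra, the partner of PPAR receptors, stood at 0.27, and the coactivators Ppargc1a and Ppargc1b at 0.34 and 0.33. Pparg, the receptor known to drive Fabp4 and Cd36, was looked at after its values were seen. It read 6.94, 7.08 and 6.75 in Con and 6.03, 6.80 and 7.34 in HKO, with HKO mice on both sides of Con and a difference of -0.20 ± 0.29 (SE). Ppara, its counterpart in hepatocyte fatty acid oxidation, stood at -0.04.

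**Figure D3:**
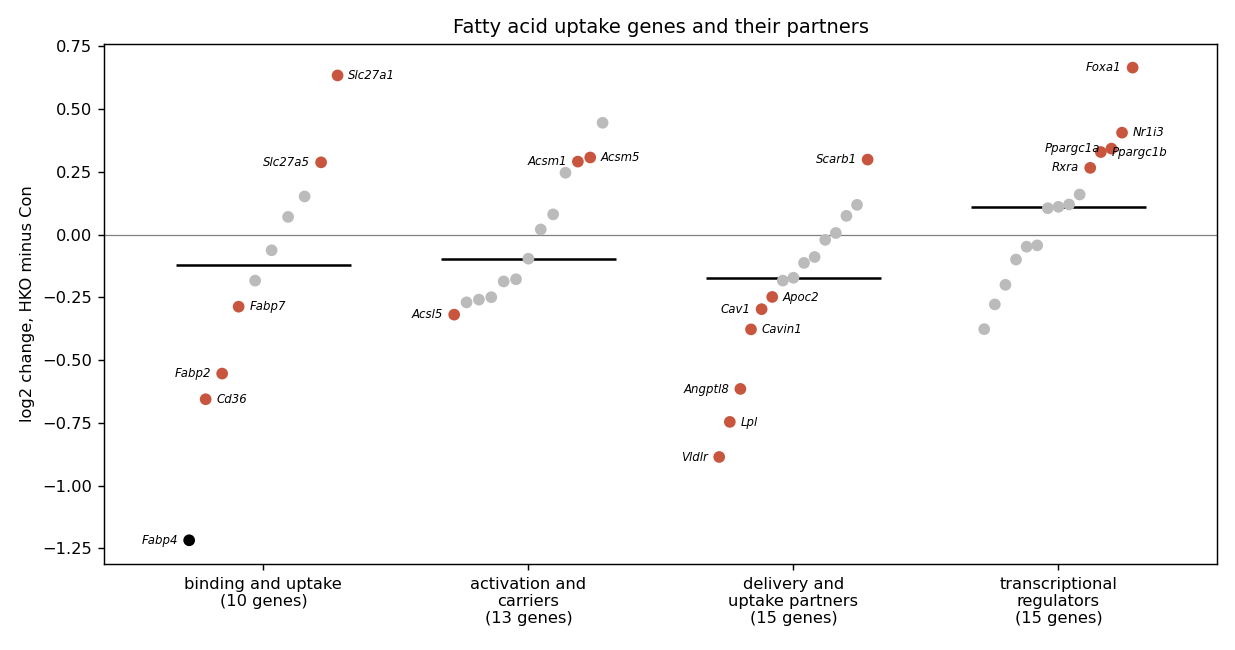
Log2 change, HKO minus Con, of each measured gene in 4 lists, with the list median as a line; genes are ordered by change from left to right. The black point passed adjusted p 0.05 (Fabp4), red named points had an unadjusted limma p under 0.05, and grey points did not; the delivery genes reach down to Vldlr at -0.89 and the regulators up to Foxa1 at 0.67.

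Markers of cell types that are known to make Fabp4 were read beside it. Of 9 measured markers of recruited and lipid-associated macrophages, all 9 had lower means in HKO, where 11484 of all 22180 genes did. Of the 9, 1 passed (Itgax), against 0.203% of all genes. The mean over the list was 5.39 to 5.51 in Con and 4.70 to 5.01 in HKO. Gpnmb, a glycoprotein of lipid-laden macrophages, had the lowest difference of this list (-1.18, limma adjusted p = 0.112), and Cd9 the highest (-0.18). Kupffer cell markers had list means of 6.80 to 7.22 in Con and 6.76 to 6.99 in HKO, which overlapped, with 0 of 10 past the threshold and differences from -0.54 (Marco) to 0.20 (Clec4f). Endothelial markers had list means of 7.27 to 7.35 in Con and 7.19 to 7.25 in HKO, with 0 of 10 past the threshold. They were split, with 5 lower and 5 higher means in HKO and a median log2 difference of -0.03. At an unadjusted limma p under 0.05 there were 3 lower and 0 higher of the 10, where 6.56% of all genes were lower and 5.31% higher. These 3 were Lyve1 at -0.57, Cdh5 at -0.30 and Pecam1 at -0.29. The highest difference was that of Fcgr2b at 0.20. The recruited and lipid-associated macrophage markers read lower in HKO like Fabp4. Kupffer cell markers were mixed, with 6 lower and 4 higher means. The endothelial list mean was lower in HKO, with Pecam1 and Cdh5 among its lower markers. The part of these lists in the change of Fabp4 was not tested.

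Of 8 measured adipocyte markers, 0 passed and 7 had higher means in HKO, where 10696 of all 22180 genes did. The list means were 4.80 to 4.91 in Con and 4.90 to 5.10 in HKO. Both group means of 4 of the 8 were under the median over genes. The part of adipocytes in the change of Fabp4 was not tested. The defining markers were dim in every mouse. Adipoq, the adipocyte hormone adiponectin, read 2.95, 2.97 and 2.94 in Con and 3.32, 3.33 and 3.06 in HKO, Lep stood at 0.20, and Plin1 had the lowest difference (-0.01) and Pnpla2 the highest (0.47). Beside Fabp2, enterocyte markers were dim too: 9 of 10 had both group means under the median over genes, list means were 2.69 to 2.79 in Con and 2.77 to 2.93 in HKO, and 0 passed. Their differences ran from -0.07 (Alpi) to 0.59 (Guca2b).

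Of the remaining lists, stellate cell markers had means of 6.91 to 7.06 in Con and 6.55 to 6.79 in HKO. Of the 10, 8 were lower, against 11484 of all 22180 genes, and 0 passed, against 0.203%. Col1a1 was at -1.32 and Des at 0.05. Hepatocyte markers had means of 10.19 to 10.33 in Con and 10.05 to 10.51 in HKO, with 0 of 9 past the threshold. They ran from G6pc at -0.55 to Cps1 at 0.27. Ass1 had the widest range of this list in both groups, which widens the range of the list means. It read 4.31, 5.48 and 4.95 in Con and 5.82, 5.21 and 3.91 in HKO. Cholangiocyte markers had means of 3.65 to 3.77 in Con and 3.61 to 3.67 in HKO, with 0 of 9 past the threshold, and ran from Krt7 at -0.30 to Cldn4 at 0.14. The part of the stellate, hepatocyte and cholangiocyte values in the differences of the 10 genes was not tested.

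**Figure D4:**
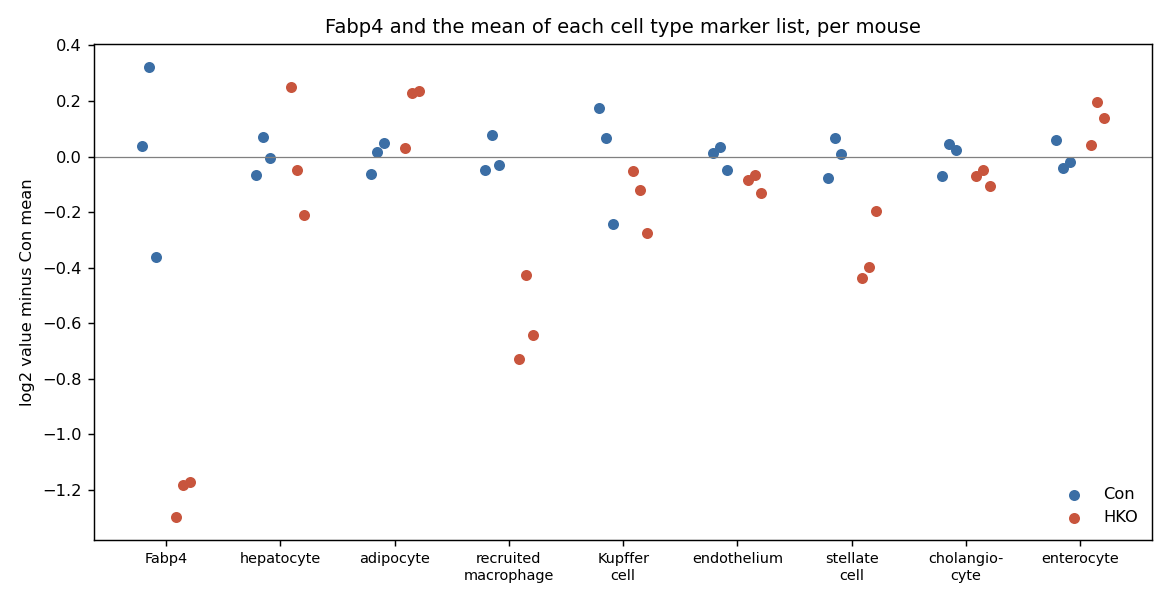
Fabp4 and the mean over each cell type marker list in every mouse, as log2 values minus the Con mean. The 3 HKO points lie below all Con points for Fabp4 and for the macrophage, endothelial and stellate lists, and are mixed with or above the Con points for the adipocyte list.

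The genes whose pattern over the 6 arrays was nearest to that of Fabp4 and Cd36, the pair with the largest differences, were found by the root mean square distance between values centred on each gene's mean. Nearest to Fabp4 were Lamb3, a laminin chain (distance 0.20), the zinc finger gene Zfp9 (0.20), Itgax, the integrin alpha X of dendritic cells and macrophages (0.20), Ctla2a (0.21) and Unc119 (0.22), where the median over all genes was 0.66; 1 predicted gene among the nearest was passed over. Lamb3 read 5.61, 5.64 and 5.59 in Con and 4.41, 4.33 and 4.59 in HKO. Nearest to Cd36 were Creb3l1, a membrane-bound transcription factor (0.08), the fatty acid elongase Elovl6 (0.10), Rgs2, a regulator of G protein signalling (0.10), Slc15a5 (0.11) and the AP-1 subunit Jun (0.11), where the median was 0.42. Elovl6, which lengthens newly made fatty acids, read 10.13, 10.19 and 10.16 in Con and 9.32, 9.73 and 9.91 in HKO, the same order among HKO mice as Cd36. These genes were picked for their likeness from all genes, and their likeness is a description over 6 arrays.

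**Figure D5:**
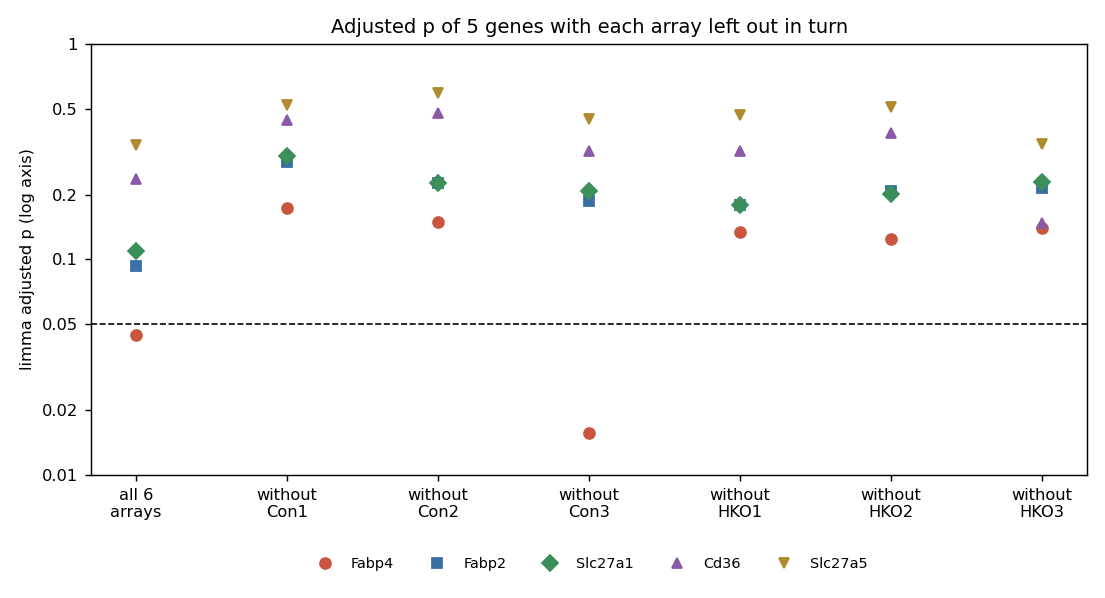
Limma adjusted p (log axis) of 5 of the genes with all 6 arrays and with each array left out in turn; the dashed line is 0.05. Fabp4 lies under the line with all arrays and without Con replicate 3, and between 0.124 and 0.173 without any other mouse; Fabp2, Slc27a1, Cd36 and Slc27a5 lie above the line in all 7 fits.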

How the data were processed

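Each array's column holds the log2 values that the authors deposited; per the submitters' processing notes they used RMA and R 3.3.0. The cDNA was made from 400 ng of RNA per the labels' protocols. The sources used here do not give further filters or the array design's build. The platform annotation names 1 gene for 23521 of 41345 probe sets, several for 1814 and none for 16010; 23328 of the first match a RefSeq table of GRCm38.p6 through their Entrez identifiers. Each gene was read from the probe set whose mean over the 6 arrays was highest, with no filter on low values (all 10 genes also pass the filter tried as an alternative).

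HKO was compared with Con in limma 3.58.1 (R 4.3.3; lmFit, eBayes, group as the only term, Benjamini-Hochberg over 22180 genes, threshold 0.05). The step was tested on simulated data. The labels name each sample as a mouse of its own. Arrays have no read depth; their number limits the precision.

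Genes, lists and tests were chosen with earlier results of these data known. All 10 genes are named, in each related list the genes past the threshold or else the 4 with the lowest p, in each marker list the extremes, and the 5 genes (predicted genes passed over) nearest in pattern to the 2 genes with the largest differences. Exceptions (Pparg, Ppara, Foxa1, Impa1, Pmp2, Alb, Ass1, Adipoq, Lep, Car3, Pecam1, Cdh5) were picked after their values were seen. The alternatives were centring, a second quantile normalization, a low-value filter, other probe set rules, variance models, array weights, a replicate block, leaving out each array, and a threshold of 0.1. Figures used matplotlib 3.10.9 in Python 3.11.15.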

Additional observations from a re-analysis of the deposited data

How the results depend on the processing

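The count of the 10 genes past the threshold was 1 (Fabp4) and became 0 with a second quantile normalization, with each probe set tested separately and with a replicate block, 3 with the filter on low values (Fabp2, Fabp4, Slc27a1), 2 with a variance trend and 2 at a threshold of 0.1 (Fabp2, Fabp4 in both); leaving out 1 mouse gave 0 to 1. The cause was not tested, though the filter tests fewer genes and leaving out a mouse fits fewer samples. Over all genes 45 passed. The count was 132 with the filter, 215 with a variance trend, 3 with the block, 115 at a threshold of 0.1, and 4 to 32 without 1 mouse. With every probe set on its own, 4 of all 41345 probe sets passed, which counts probe sets and not genes. Of the related genes 0 passed, and 1 (Nr1i3) with a variance trend. The adjusted p of Snai2 missed 0.05 with every probe set on its own (0.0910) and with the block (0.0540) at a log2 change of -2.43; without 1 mouse the change ran from -2.69 to -2.15, and it also missed 0.05 without Con replicate 1 (0.0758), Con replicate 2 (0.0927) or HKO replicate 2 (0.0621). Same-numbered mice of both groups showed almost no joint deviation (correlations 0.03, 0.02 and 0.02 over genes). This cannot tell whether they share a litter or a batch, which may touch few genes. With the block, Fabp4 missed the threshold (limma adjusted p = 0.1004). Of the 92 alternative log2 differences of the 10 genes that differed from the reported ones, 2 changed sign, both of Fabp5 (-0.00336 with probe sets averaged, and -0.047 without HKO replicate 3; leaving out other mice gave up to 0.22). Values near the median over genes (Fabp5, Slc27a1) are limited by signal over background, which was not measured.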

Other observations

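Within the HKO group the mice differed more in Cd36 than the Con mice did, and this order was seen after the values were known. HKO replicate 1 was lowest and HKO replicate 3 highest in Cd36 (-1.04 and -0.27 log2 units from the Con mean), and the same order held for the remaining Snai2 signal (-2.99 and -1.92) and for Pparg, which went from -0.89 to 0.42. Of the 9 markers of recruited and lipid-associated macrophages 3 had that order (Gpnmb, Trem2 and Cd68) and 6 did not, and Lpl and Vldlr, lowest in HKO replicate 2, did not have it either. Fabp4 and Fabp5 had the order too, with HKO mice 1, 2 and 3 at -1.30, -1.18 and -1.17 for Fabp4 and at -0.22, 0.13 and 0.31 for Fabp5. Fabp2 had the reverse order. Fabp4 and Fabp2 were spread far less than Cd36, with HKO mice at -1.30 to -1.17 and -0.59 to -0.53. With 3 mice the order was not tested, and the share of all genes that have it was not counted.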
